A study of Homo sapiens with 12 samples.

Results

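The genes of G2 and mitosis are a set of 38 named genes that drive cells from the end of DNA replication through chromosome segregation and cytokinesis. Members were the genes among these 38 that had a row of the array annotated to that gene symbol alone, and the brightest such row was taken where a gene had several. This held for 34 of the 38, out of 14232 genes with such a row and 22011 rows in all. The other 4 are not analysed here, because their rows name a further gene: BUB1B with PAK6, KIF4A with KIF4B, KIF20A with CDC23, and KIF23 with its antisense transcript. RNA was measured on 12 arrays of HEK293, a cell line made long ago from human embryonic kidney, with 3 replicates in each of 4 groups. The first group received full-length MED12 with an engineered Kozak sequence and an N-terminal nuclear GFP tag in the vector pcDNA5/TO. The second received MED12 that lacks the PQL and Opa domains of its C-terminus, with the same tag, Kozak sequence and vector (the PQL/Opa deletion). The third received peGFP-C1 carrying an H1 promoter that transcribes a short hairpin RNA (shRNA) against MED12. The control received nuclear GFP alone in pcDNA5/TO. All 4 were transfected with a lipid reagent after 24 hours of growth and harvested 48 hours later, and viable GFP-positive cells were sorted for 20 minutes. The shRNA and GFP groups differ in vector and in the presence of a hairpin as well as in MED12, and these cannot be told apart. The comparisons ask how transcript levels change when full-length MED12 or its PQL/Opa deletion is overexpressed, or MED12 is targeted. The constructs also differ in the level of the MED12 row, given below, and this cannot be told apart from the deletion.

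Entry into mitosis is driven by the kinase CDK1 bound to cyclin A or B, after CDC25 phosphatases remove inhibitory phosphates. The spindle checkpoint then holds back the anaphase-promoting complex (APC/C), a ubiquitin ligase, until every kinetochore is attached, after which CDC20-bound APC/C destroys cyclin B and securin. Most of these genes are transcribed together late in the cell cycle by the MuvB complex with B-MYB and FOXM1, and are repressed in resting cells by MuvB with RB-family proteins. MED12 belongs to the kinase module of Mediator, the complex between transcription factors and RNA polymerase II.

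The MED12 row had log2 values from 10.63 to 10.75 with full-length MED12, from 8.62 to 9.25 with the PQL/Opa deletion, from 3.63 to 3.74 with the shRNA and from 4.03 to 4.66 with GFP. The 3 shRNA arrays lay below all 3 GFP arrays, and this difference of -0.75 ± 0.20 (SE) in log2 did not pass the threshold used below (limma, adjusted p = 0.730). The kidney transcription factor gene PAX2, the neurofilament gene NEFM, VIM and KRT8, which HEK293 cells are known to express, lay at or above the 76.5th percentile of rows, while NEFL and KRT18 lay at the 58.9th and 49.5th. The 14 markers of leukocytes, fibroblasts, endothelium, hepatocytes and keratinocytes lay between the 8.35th percentile (PTPRC) and the 73.3th (APOA1), with 6 of 14 above the median row. Array medians ran from 3.39 to 3.51, but the standard deviation of the log2 values over all rows ran from 1.34 to 1.60. It was smallest in replicate 1 of the PQL/Opa deletion, shRNA and GFP groups, at 1.45, 1.34 and 1.40.

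None of the 34 genes passed the threshold in any of 4 comparisons. Each comparison was tested with limma, a linear model with moderated variances, fitted to all rows and all 12 arrays. The threshold was an adjusted p under 0.05 over all rows (Benjamini-Hochberg). With full-length MED12 against GFP, 0 of 34 passed, where 0.0136% of all rows did, and 1 had an unadjusted p under 0.05 (2.8% of rows). That 1 was lower (1.36% of rows), with 0 higher (1.44%). With the PQL/Opa deletion against GFP, 0 passed (0.00454% of rows) and 2 had an unadjusted p under 0.05 (3.46% of rows), 1 higher and 1 lower (1.75% and 1.7%). With the shRNA against GFP, 0 passed (0.0681% of rows) and 3 had an unadjusted p under 0.05, all of them lower (5.04% of rows, 2.58% lower and 2.47% higher). Between full-length MED12 and the PQL/Opa deletion 0 passed and 0 had an unadjusted p under 0.05 (0.00454% and 1.9% of rows, 1.11% higher and 0.795% lower). A moderated F test over the 4 groups called 0 (0.0863% of rows), with 3 at an unadjusted p under 0.05 (4.62% of rows): CDC20, CENPE and HMMR. The median 95% interval of a member reached 0.53 to either side of its log2 fold change. That interval is unadjusted, and larger differences than this did not pass the threshold adjusted over all rows, among them 0.96 for CDC20 and -0.72 for CENPE and HMMR. In these bulk samples fewer cells in G2 or mitosis and less RNA per cell cannot be told apart.

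The median log2 fold change of the members was -0.03 with full-length MED12 against GFP, -0.04 with the PQL/Opa deletion against GFP and -0.14 with the shRNA against GFP, beside medians over all rows of -0.01, -0.01 and 0.02. In the brighter rows, those 11006 whose mean over the 12 arrays was at or above the median row, the medians were 0.03, 0.02 and -0.03. With both MED12 constructs 15 members lay above 0 and 19 below (48.6% and 51.4% of all rows with full-length MED12, 48.4% and 51.6% with the PQL/Opa deletion). With the shRNA 9 lay above 0 and 25 below (54.4% and 45.6% of all rows). These 3 comparisons share the GFP arrays. Between the constructs the median was 0.0004, with 17 members above 0 and 17 below (49.7% and 50.3% of all rows). Small log2 fold changes are not settled in sign: 250 of 2716 values of members under alternative settings had the other sign. Some of these settings cannot move a log2 fold change, so the 2716 include values whose sign could not turn. The counts by sign also turned on single arrays. Without GFP replicate 1, 6 members lay above 0 with full-length MED12, 9 with the PQL/Opa deletion and 6 with the shRNA. Without GFP replicate 2 or 3, 15 lay above 0 with the shRNA. The log2 fold changes of single members against GFP ran from -0.45 to 0.55 with full-length MED12, from -0.62 to 0.96 with the PQL/Opa deletion and from -0.72 to 0.49 with the shRNA. Arrays of 2 groups did not overlap at all for few members. With the PQL/Opa deletion this held for 2 on the higher side, CDC20 and KIF2C (4.13% of all rows), and 1 on the lower side, CENPE (3.79%). With the shRNA it held for 0 on the higher side (4.71%) and 3 on the lower, CENPE, HMMR and ASPM (3.85%). With full-length MED12 against GFP it held for 0 in either direction (4.03% higher and 3.7% lower), and against the PQL/Opa deletion for 1 on the lower side, CDC20 (3.09%), and 0 on the higher (3.81%).

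**Figure D1:**
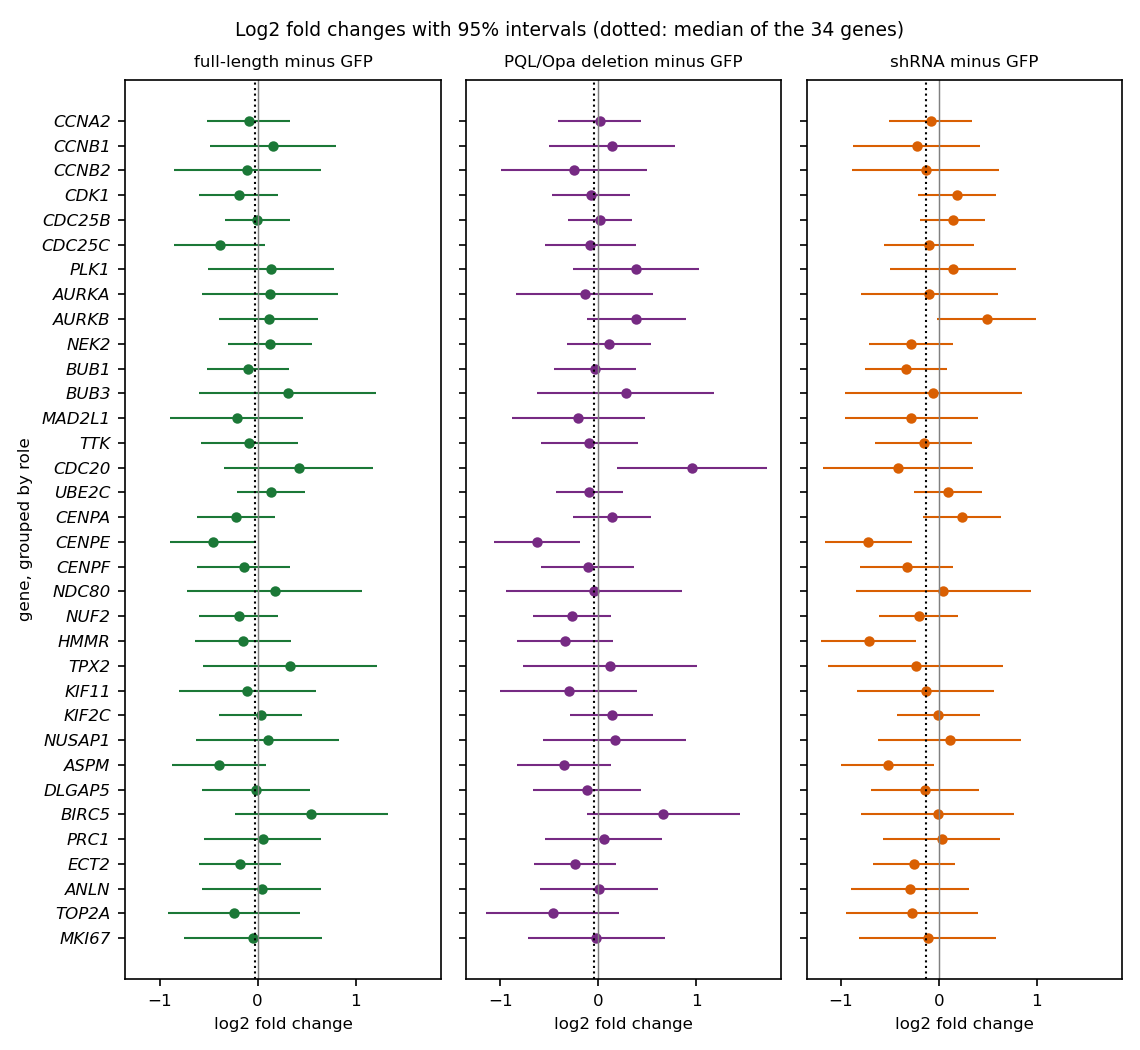
Log2 fold changes of the 34 G2 and mitosis genes against GFP for full-length MED12, the PQL/Opa deletion and the shRNA (points), with 95% intervals from limma (lines) and the median of the genes (dotted). The intervals exclude 0 for 1, 2 and 3 genes in the 3 panels, and the medians are -0.03, -0.04 and -0.14.

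In 28 of the 34 genes (82.4%, beside 71.7% of all rows) the 4 group means spanned less than the 3 GFP arrays alone; means of 3 arrays vary less than single arrays, so nothing is read from this count. In all groups but full-length MED12, the lowest array was replicate 1 for most of the 34 genes. Replicate 1 was the lowest of its group for 16 genes with full-length MED12 (47.1%, beside 31% of all rows and 37.1% of the brighter rows) and for 26 with the PQL/Opa deletion (76.5%, beside 33.8% and 48.1%). It was the lowest for 22 with the shRNA (64.7%, beside 33.6% and 49.8%) and for 27 with GFP (79.4%, beside 33.8% and 51%). In 12 genes it was the lowest in every group (35.3%, beside 9.26% of all rows). That share was not computed for the brighter rows, where replicate 1 was more often the lowest in each group than over all rows. These counts describe 4 arrays, and the genes are not independent of each other.

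The mean over the 34 genes of the log2 value minus its GFP mean was -0.12, 0.05 and 0.02 in replicates 1, 2 and 3 of full-length MED12 and -0.25, 0.13 and 0.10 in those of the PQL/Opa deletion. It was -0.39, 0.16 and -0.18 in the shRNA arrays and -0.37, 0.15 and 0.22 in the GFP arrays. The 4 groups overlapped throughout. The lowest arrays were replicate 1 of the PQL/Opa deletion, shRNA and GFP groups, which are the 3 arrays with the narrowest spread of values, and shRNA replicate 3, at -0.18, had the next narrowest at 1.47. The same mean over the brighter rows was -0.04, -0.17 and -0.11 in replicate 1 of the PQL/Opa deletion, shRNA and GFP groups. Without the 3 narrowest arrays the median of the members was -0.22 with full-length MED12 (28 of 34 below 0), -0.07 with the PQL/Opa deletion (24 below 0) and -0.20 with the shRNA (25 below 0), each against GFP, and 0 passed. Without shRNA replicate 1 the median of the members against GFP was 0.01, with 16 below 0 in place of 25. Without GFP replicate 1 it was -0.39, and without replicate 1 of all 4 groups, a choice made after seeing the data, it was -0.20.

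**Figure D2:**
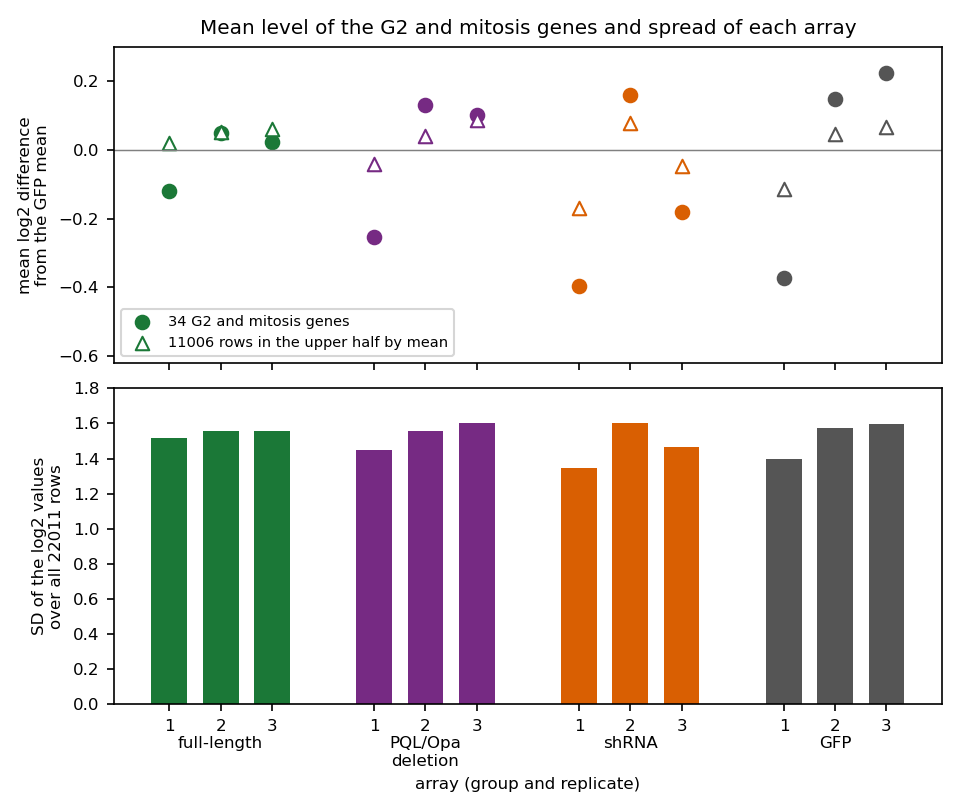
Upper panel, mean over the 34 G2 and mitosis genes (filled circles) or over the 11006 brighter rows (open triangles) of the log2 value minus the GFP mean, for each array by group and replicate. Lower panel, standard deviation of the log2 values of each array; the 3 lowest circles, between -0.25 and -0.39, stand over the 3 shortest bars, between 1.34 and 1.45.

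**Figure D3:**
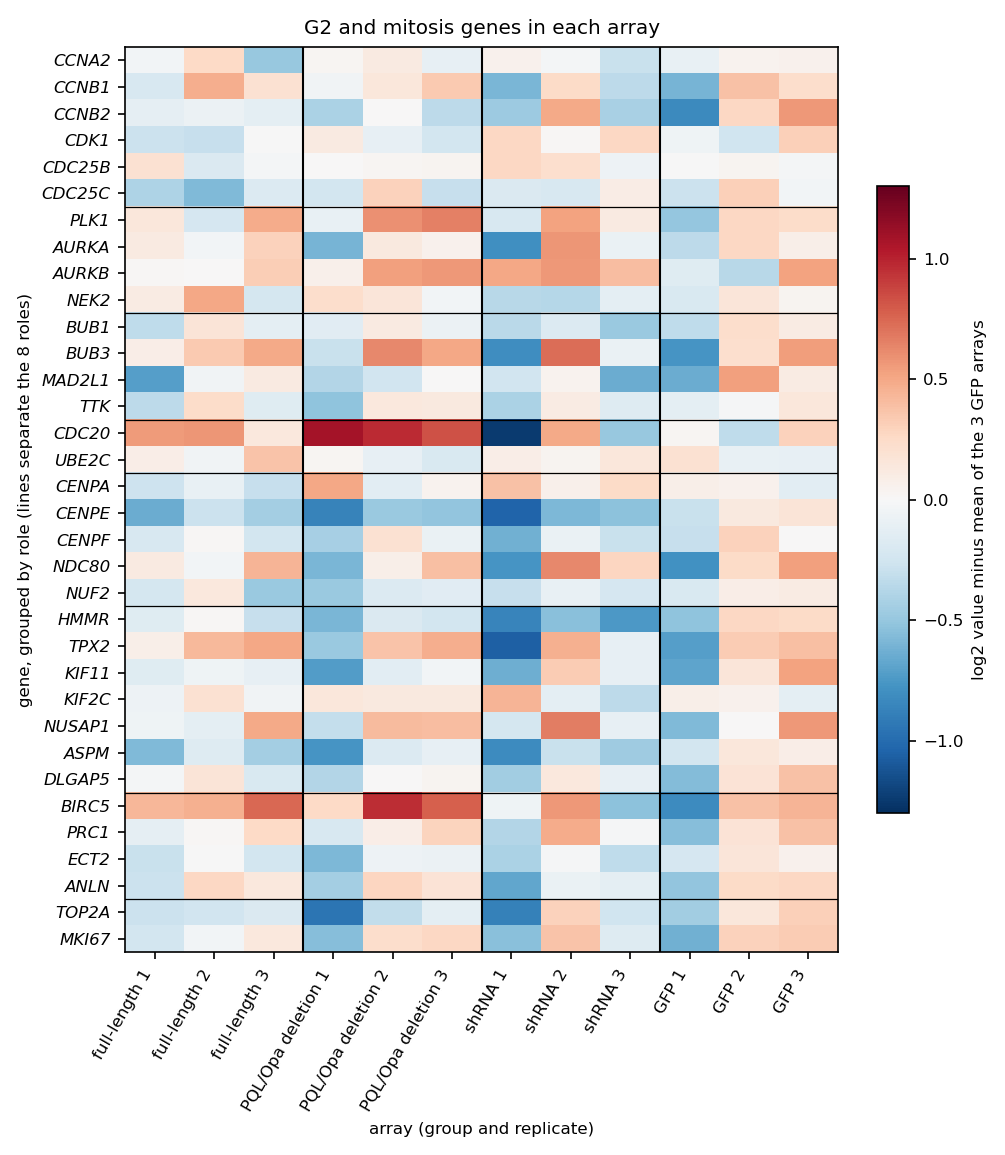
Log2 value of each of the 34 genes (rows, grouped by role) in each of the 12 arrays (columns), minus the mean of its 3 GFP arrays. Mostly blue columns stand at replicate 1 of the PQL/Opa deletion, shRNA and GFP groups, and the row of CENPE is below its GFP mean in all 9 arrays of the other groups.

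Centromere and kinetochore genes held the member with the lowest fold changes. Of the 5 measured, 0 passed in any comparison. CENPE, a kinesin that carries chromosomes to the spindle equator, had log2 values of 3.91, 4.28 and 4.12 with full-length MED12, 3.69, 4.08 and 4.05 with the PQL/Opa deletion, and 3.52, 3.97 and 4.03 with the shRNA, against 4.27, 4.69 and 4.72 with GFP. The shRNA and PQL/Opa deletion arrays all lay below the GFP arrays, and full-length replicate 2 overlapped GFP replicate 1. Its log2 fold change against GFP was -0.72 ± 0.20 (SE) with the shRNA, 1.65-fold lower (limma, unadjusted p = 0.004, adjusted p = 0.780), -0.62 with the PQL/Opa deletion (adjusted p = 1.00) and -0.45 with full-length MED12 (adjusted p = 1.00). The 3 values are not independent, since they share the GFP arrays. Between the constructs CENPE differed by 0.17 (limma, adjusted p = 1.00), and by 0.043 without PQL/Opa deletion replicate 1, 0.079 without full-length replicate 2 and 0.26 without full-length replicate 1. Over the alternatives tried the shRNA value against GFP ran from -0.87 to -0.56.

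CENPF, a kinetochore protein that is made in G2, had 6.07, 6.30 and 6.04 with full-length MED12, 5.85, 6.48 and 6.19 with the PQL/Opa deletion and 5.66, 6.20 and 5.997 with the shRNA, against 5.99, 6.58 and 6.29 with GFP. The groups overlapped, and the shRNA differed from GFP by -0.33 ± 0.22 in log2 (SE; limma, unadjusted p = 0.153). CENPA, the histone variant that marks centromeres, had 4.72, 4.41 and 4.59 with the shRNA, against 4.42, 4.39 and 4.21 with GFP. It was among the 3 members with the smallest p on the higher side with the shRNA, where it differed from GFP by 0.23 ± 0.18 in log2 (SE; limma, adjusted p = 1.00). Between the constructs CENPA had 4.07, 4.25 and 4.04 with full-length MED12, against 4.85, 4.20 and 4.39 with the PQL/Opa deletion. Its difference of -0.36 ± 0.18 (SE) had the smallest p of the members in that comparison and did not pass (limma, unadjusted p = 0.073, adjusted p = 1.00). It was -0.17 without PQL/Opa deletion replicate 1. NDC80 and NUF2, subunits of the complex that grips microtubules, had log2 fold changes between -0.27 and 0.17 in the comparisons with GFP.

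Among 7 spindle motors and microtubule-binding proteins 0 passed, and 6 of 7 had a negative log2 fold change with the shRNA, of which TPX2, KIF11, KIF2C and DLGAP5 changed sign under at least 1 alternative. HMMR, a spindle pole protein and hyaluronan receptor, had 3.77, 4.08 and 3.88 in shRNA arrays, against 4.10, 4.90 and 4.88 in GFP arrays. All 3 shRNA arrays lay below the lowest GFP array, narrowly in the case of replicate 2. The log2 fold change was -0.72 ± 0.22 (SE), 1.64-fold lower (limma, unadjusted p = 0.008, adjusted p = 0.857). In the PQL/Opa deletion arrays HMMR had 4.03, 4.44 and 4.38, a log2 fold change of -0.34 against GFP, and with full-length MED12 it had 4.47, 4.64 and 4.32, higher by 0.19 than with the PQL/Opa deletion (limma, adjusted p = 1.00 for both). Without PQL/Opa deletion replicate 1 these were -0.21 and 0.067. The first was -0.60 without GFP replicate 1 and -0.21 and -0.22 without GFP replicates 2 and 3, and the second was 0.11 without full-length replicate 2. ASPM, which organises spindle poles, had 4.13, 4.67 and 4.49 with the shRNA, against 4.72, 5.11 and 5.04 with GFP. These groups did not overlap, and the difference was -0.53 ± 0.22 (SE; limma, unadjusted p = 0.034, adjusted p = 0.982). ASPM had 4.38, 4.79 and 4.51 with full-length MED12 and 4.19, 4.78 and 4.85 with the PQL/Opa deletion, with log2 fold changes of -0.40 and -0.35 against GFP (limma, adjusted p = 1.00 for both), the second being -0.14 without PQL/Opa deletion replicate 1. Both groups overlapped GFP through its replicate 1.

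KIF11, the motor that pushes spindle poles apart, had 3.98, 4.09 and 4.03 with full-length MED12, 3.41, 3.999 and 4.10 with the PQL/Opa deletion and 3.502, 4.48 and 4.04 with the shRNA, against 3.46, 4.30 and 4.67 with GFP. Replicate 1 was lowest in every group and the groups overlapped. TPX2, which activates AURKA at the spindle, ranged from 4.28 in shRNA replicate 1 to 5.85 in full-length replicate 3, and its GFP arrays from 4.64 to 5.74. NUSAP1 and DLGAP5, which bind and stabilise spindle microtubules, ran from 4.67 to 5.56 and from 4.33 to 4.93 with the shRNA, against 4.33 to 5.46 and 4.23 to 5.17 with GFP, so both overlapped. KIF2C, a microtubule depolymerase, had 3.04, 3.02 and 3.02 with the PQL/Opa deletion, against 2.97, 2.95 and 2.77 with GFP. The groups did not overlap, but the log2 fold change was 0.14. Its GFP mean was at the 29.2th percentile, and no detection call is given for it.

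**Figure D4:**
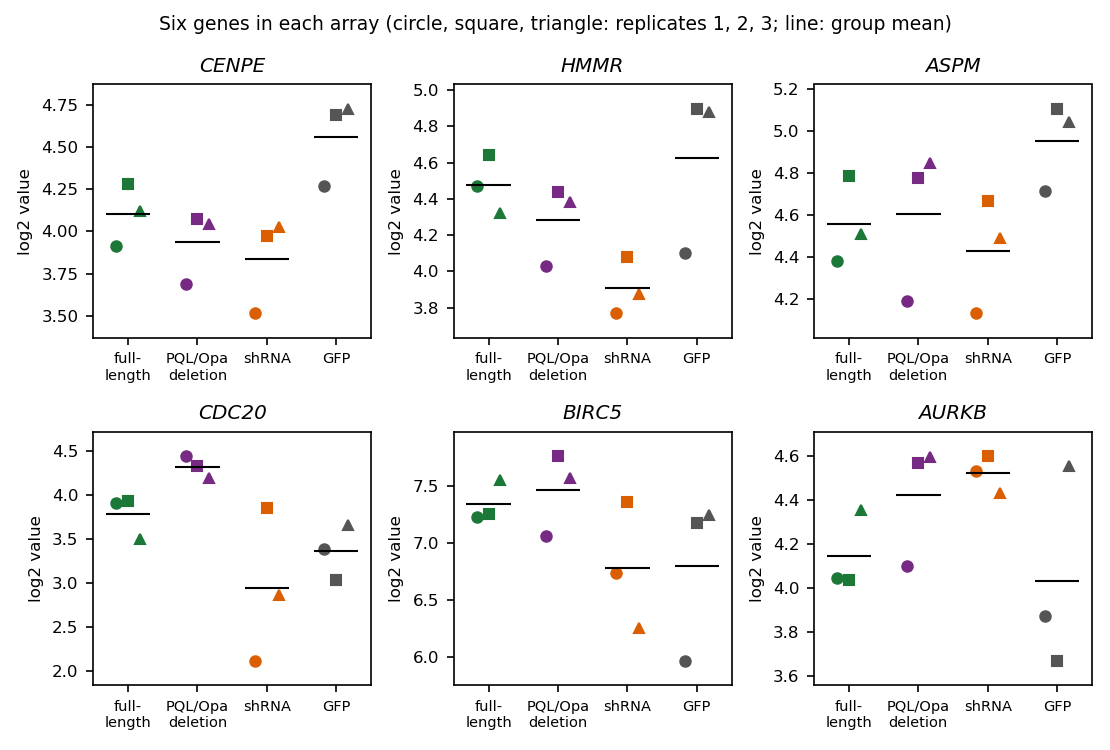
Log2 value (vertical axes, each with its own range) of CENPE, HMMR, ASPM, CDC20, BIRC5 and AURKB in each array, by group (circle, square and triangle for replicates 1, 2 and 3; lines for group means). The shRNA arrays lie below all GFP arrays for CENPE, HMMR and ASPM, and the PQL/Opa deletion arrays above all GFP arrays for CDC20.

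The member with the widest range of group means was CDC20, at 1.38 log2 units, and neither the APC/C activator nor its E2 enzyme passed. CDC20, which recruits APC/C substrates in mitosis, had 3.91, 3.93 and 3.49 with full-length MED12, 4.44, 4.32 and 4.19 with the PQL/Opa deletion and 2.12, 3.85 and 2.86 with the shRNA, against 3.39, 3.03 and 3.66 with GFP. All 3 PQL/Opa deletion arrays lay above all GFP and all full-length arrays, while the shRNA arrays were spread from 2.12 to 3.85 and overlapped GFP. The PQL/Opa deletion had a log2 fold change of 0.96 ± 0.35 (SE) against GFP, 1.94-fold higher (limma, unadjusted p = 0.018, adjusted p = 1.00). Full-length MED12 differed from GFP by 0.42 and from the PQL/Opa deletion by -0.54 ± 0.35 (SE; limma, adjusted p = 1.00 for both), and the first was 0.26 without GFP replicate 2. CDC20 had the smallest p of the members in the F test over the 4 groups (limma, unadjusted p = 0.0125, adjusted p = 0.981). Its GFP mean was at the 46.9th percentile with no detection call, so the sizes are uncertain. UBE2C, the E2 enzyme that loads ubiquitin for the APC/C, had 4.23, 4.10 and 4.52 with full-length MED12, 4.17, 4.04 and 3.95 with the PQL/Opa deletion and 4.23, 4.18 and 4.29 with the shRNA, against 4.34, 4.05 and 4.04 with GFP. It was among the 3 members with the smallest p on the higher side for full-length MED12, with 0.14 against GFP and 0.23 against the PQL/Opa deletion (limma, adjusted p = 1.00 for both). Without full-length replicate 3 these were 0.017 and 0.11, and the first ran from 0.085 to 0.23 without each GFP array in turn and was 0.23 without full-length replicate 2.

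Promoter sequences are shown for the 3 members lowest with the shRNA (HMMR, ASPM and CENPE) and the member highest with the PQL/Opa deletion (CDC20), because the genes of this set are known to share promoter elements. The CCAAT box is bound by NF-Y, and the CHR, searched here as TTTGAA, is bound by MuvB. RefSeq promoters of 300 bases (250 before and 50 after the gene start, GRCh38.p14) were found for 32 of the 38 genes, 28 of them measured. On either strand, CCAAT was present in 24 of the 32 (75%), beside 35.7% of all 27305 promoters of this length. TTTGAA was present in 22 (68.8%), beside 15.4%, and both in 18 (56.2%), beside 6.08%. The sequences run 5′ to 3′ along the gene, with matches of either motif on either strand in capitals (ATTGG and TTCAAA on the other strand).
HMMR, chr5:163460382-163460681, plus strand: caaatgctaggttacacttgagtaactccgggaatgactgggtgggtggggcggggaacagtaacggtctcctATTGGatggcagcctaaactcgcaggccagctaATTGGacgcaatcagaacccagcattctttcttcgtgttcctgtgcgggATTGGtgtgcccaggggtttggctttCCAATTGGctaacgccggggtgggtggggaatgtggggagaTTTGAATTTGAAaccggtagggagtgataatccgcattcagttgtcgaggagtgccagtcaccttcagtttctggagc
ASPM, chr1:197146620-197146919, minus strand: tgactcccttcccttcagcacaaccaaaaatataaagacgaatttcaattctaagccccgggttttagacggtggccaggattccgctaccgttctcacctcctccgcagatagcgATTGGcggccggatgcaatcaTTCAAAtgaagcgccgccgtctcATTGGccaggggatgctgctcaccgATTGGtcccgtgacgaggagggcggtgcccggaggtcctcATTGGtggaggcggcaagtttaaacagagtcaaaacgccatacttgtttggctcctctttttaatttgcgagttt
CENPE, chr4:103198294-103198593, minus strand: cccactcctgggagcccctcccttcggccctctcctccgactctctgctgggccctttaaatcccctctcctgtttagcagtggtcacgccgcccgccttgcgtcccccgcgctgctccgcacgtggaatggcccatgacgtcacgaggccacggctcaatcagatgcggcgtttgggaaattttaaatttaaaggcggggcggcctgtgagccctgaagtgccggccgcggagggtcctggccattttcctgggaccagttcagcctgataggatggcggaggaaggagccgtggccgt
CDC20, chr1:43358731-43359030, plus strand: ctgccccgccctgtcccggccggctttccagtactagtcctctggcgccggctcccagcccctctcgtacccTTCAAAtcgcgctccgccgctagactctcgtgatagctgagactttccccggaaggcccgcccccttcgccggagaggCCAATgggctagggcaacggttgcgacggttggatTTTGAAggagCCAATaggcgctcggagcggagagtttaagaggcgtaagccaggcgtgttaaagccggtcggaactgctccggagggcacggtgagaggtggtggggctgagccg
HMMR held 5 CCAAT matches and 2 of TTTGAA, with a CCAAT on each strand overlapping in 1 place. ASPM held 4 and 1, CDC20 2 and 2, and CENPE 0 of both. Only these exact letters were searched, so 0 does not exclude other forms of either element. Whether matches go with the fold changes was not tested. A match is a run of letters and not a measured site.

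In the group of CDK1 with its cyclins and CDC25 phosphatases, 0 of 6 passed in any comparison. CCNB1, cyclin B1, had 5.25, 5.93 and 5.66 with full-length MED12, 5.41, 5.60 and 5.79 with the PQL/Opa deletion and 4.86, 5.70 and 5.12 with the shRNA, against 4.85, 5.84 and 5.68 with GFP. The groups overlapped, and replicate 1 was lowest in each. CDK1 itself had 2.16, 2.14 and 2.43 with full-length MED12, 2.55, 2.33 and 2.20 with the PQL/Opa deletion and 2.70, 2.46 and 2.71 with the shRNA, against 2.38, 2.18 and 2.75 with GFP. Its log2 fold change with the shRNA was 0.18 ± 0.18 (SE; limma, adjusted p = 1.00), and 0.057 and 0.34 without GFP replicates 2 and 3. The GFP mean of CDK1 was at the 16.8th percentile, and without a detection call this row says little about the transcript. CDC25C, a phosphatase that activates CDK1, had 3.22, 3.04 and 3.44 with full-length MED12, 3.38, 3.92 and 3.32 with the PQL/Opa deletion and 3.43, 3.41 and 3.71 with the shRNA, against 3.34, 3.93 and 3.59 with GFP. Full-length arrays overlapped those of the PQL/Opa deletion and of GFP, with log2 fold changes of -0.31 and -0.39 (limma, adjusted p = 1.00 for both). These were -0.12 without PQL/Opa deletion replicate 2 and -0.23 without GFP replicate 2. CCNB2, cyclin B2, was tight with full-length MED12, from 3.91 to 3.96, and wide with GFP, from 3.20 to 4.60. CCNA2, cyclin A2, and CDC25B had log2 fold changes between -0.09 and 0.14 against GFP in all 3 groups.

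Of 4 mitotic kinases 0 passed, and all 4 had a positive log2 fold change with full-length MED12, from 0.11 to 0.14, but each of these changed sign under at least 1 alternative. AURKB, the kinase of the chromosomal passenger complex, had 4.53, 4.60 and 4.43 with the shRNA, 4.10, 4.57 and 4.60 with the PQL/Opa deletion and 4.05, 4.04 and 4.35 with full-length MED12, against 3.88, 3.67 and 4.56 with GFP. GFP replicate 3 lay above shRNA replicates 1 and 3, so the groups overlapped. The log2 fold change was 0.49 ± 0.23 (SE) with the shRNA (limma, unadjusted p = 0.056, adjusted p = 0.996) and 0.39 with the PQL/Opa deletion (adjusted p = 1.00). Without GFP replicate 2 these were 0.31 and 0.21, and without GFP replicate 3 they were 0.75 and 0.65. It had the smallest p on the higher side with the shRNA, opposite in sign to CENPE, HMMR and ASPM. PLK1, which triggers mitotic entry and spindle assembly, had 4.48, 4.12 and 4.82 with full-length MED12, 4.25, 4.93 and 4.99 with the PQL/Opa deletion and 4.13, 4.86 and 4.45 with the shRNA, against 3.83, 4.61 and 4.57 with GFP. GFP replicate 1 was the lowest of all 12 arrays, and the other GFP arrays lay among those of the other groups. AURKA, the spindle pole kinase, ran from 3.45 to 4.82 within the shRNA group alone. NEK2, a centrosome kinase, had 5.21, 5.20 and 5.45 with the shRNA, against 5.37, 5.73 and 5.61 with GFP.

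All 4 measured spindle checkpoint genes had a negative log2 fold change with the shRNA, from -0.34 for BUB1 to -0.06 for BUB3, and 0 passed. That of BUB3 changed sign under 4 alternatives. BUB1, the kinase that recruits checkpoint proteins to kinetochores, had 3.94, 4.12 and 3.81 with the shRNA, against 3.96, 4.52 and 4.40 with GFP, where replicate 1 overlapped. MAD2L1, which inhibits CDC20, had 4.99, 5.28 and 4.59 with the shRNA, against 4.59, 5.77 and 5.34 with GFP. BUB3, a partner of BUB1, ran from 4.11 to 5.64 in the shRNA arrays, against 4.15 to 5.47 in the GFP arrays. TTK, the kinase at the top of the checkpoint, had log2 fold changes of -0.09, -0.09 and -0.16 with full-length MED12, the PQL/Opa deletion and the shRNA.

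Among 4 measured genes of the central spindle and cytokinesis 0 passed. BIRC5, which encodes survivin, a passenger complex subunit, had 7.23, 7.26 and 7.55 with full-length MED12, 7.06, 7.76 and 7.57 with the PQL/Opa deletion and 6.74, 7.36 and 6.26 with the shRNA, against 5.97, 7.17 and 7.24 with GFP. Both constructs had log2 fold changes above 0, at 0.55 ± 0.36 and 0.67 ± 0.36 (SE; limma, adjusted p = 1.00 for both). Both groups overlapped GFP, whose replicate 1 lay far below its other arrays: without that array the values were 0.14 and 0.25. BIRC5 is the 1 member with a second row, and there the log2 fold changes were 0.31 and 0.06. PRC1, which bundles microtubules at the midzone, had 6.48, 6.62 and 6.86 with full-length MED12, 6.39, 6.68 and 6.89 with the PQL/Opa deletion and 6.22, 7.08 and 6.58 with the shRNA, against 6.05, 6.77 and 6.98 with GFP. The groups overlapped. ANLN and ECT2, which build and position the cleavage furrow, had log2 fold changes of -0.30 and -0.25 with the shRNA.

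TOP2A, the topoisomerase that untangles sister chromatids, had 6.43, 6.46 and 6.53 with full-length MED12, 5.76, 6.39 and 6.59 with the PQL/Opa deletion and 5.83, 7.02 and 6.45 with the shRNA, against 6.26, 6.85 and 7.02 with GFP. The groups overlapped, and the log2 fold change was lowest with the PQL/Opa deletion, at -0.47 ± 0.31 (SE; limma, adjusted p = 1.00), and ran from -0.69 to -0.22 when 1 array was left out. MKI67, the proliferation marker Ki-67, had group means of 6.15 ± 0.19 with full-length MED12, 6.17 ± 0.47 with the PQL/Opa deletion and 6.08 ± 0.46 with the shRNA, against 6.19 ± 0.54 with GFP (SD, n = 3 each). These means differed by less than the SD of any group.

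Other genes of the pathway were read from 5 lists. Of the transcription factors and repressor complexes of these promoters 8 of 13 were measured, of APC/C subunits and regulators 11 of 14, of condensin subunits 5 of 8, of further passenger, CDK1-inhibitory and mitotic exit genes 8 of 10, and of p53 targets and CDK inhibitors 11 of 13. None of the genes measured passed in any of the 4 comparisons. FBXO5, the inhibitor of the APC/C also called EMI1, had 5.03, 5.33 and 5.52 with the shRNA, against 5.64, 6.23 and 5.95 with GFP. The groups did not overlap, and the log2 fold change was -0.65 ± 0.22 (SE; limma, unadjusted p = 0.0141, adjusted p = 0.910). FBXO5 also separated the constructs, with 6.12, 6.34 and 5.82 for full-length MED12, against 5.16, 5.74 and 5.67 for the PQL/Opa deletion, a difference of 0.57 (limma, adjusted p = 1.00). CKS2, a small subunit that binds CDK1, had 5.90, 5.98 and 5.27 with full-length MED12, against 5.09, 5.02 and 4.54 with the PQL/Opa deletion. Its arrays did not overlap between the constructs, and the difference of 0.83 ± 0.26 (SE) had an unadjusted p of 0.009 (limma, adjusted p = 1.00). Among the p53 targets PLK2 had the smallest p with the shRNA, at -0.41 (limma, adjusted p = 0.983). RPRM had it for both constructs, at 0.39 and 0.27, and CDKN1C between the constructs, at 0.26. Among the transcription factors MYBL2, which encodes B-MYB, had 0.46 with the PQL/Opa deletion and 0.28 with the shRNA, NFYB had 0.35 with full-length MED12, and E2F4 had -0.29 between the constructs. In the APC/C list ANAPC5 had 0.26 and 0.45 with full-length MED12 and the PQL/Opa deletion. Among condensins NCAPH2 had -0.25 with full-length MED12, SMC2 -0.26 with the PQL/Opa deletion and -0.40 with the shRNA, and NCAPH -0.18 between the constructs. In the list of passenger and CDK1-inhibitory genes CKS2 had 0.45 and -0.38 with full-length MED12 and the PQL/Opa deletion against GFP, and PKMYT1 had 0.19 with the shRNA. The median log2 fold changes of the 5 lists lay between -0.12 and 0.11 in the comparisons with GFP.

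With weights given to arrays by their agreement with the group mean, 13 of the 34 genes passed with the shRNA, 11 lower and 2 higher, where 25.9% of all rows passed. In the F test over the 4 groups 14 passed, where 28.9% of all rows did. With the shRNA HMMR had the smallest adjusted p, with a log2 fold change of -0.96 (limma with array weights, adjusted p = 0.00121). CENPE, BUB1, ASPM, MAD2L1, ECT2, BIRC5, CENPF, CCNB1, CCNB2 and KIF2C were also lower, and AURKB and CDK1 were higher. The GFP means of CDK1 and KIF2C were at the 16.8th and 29.2th percentiles, with no detection call. In that fit shRNA replicate 3 had a weight of 8.77 and the other shRNA arrays 0.29 and 0.42, while GFP replicate 2 had 3.31 and the other GFP arrays 0.29 and 0.80. The comparison thus rested largely on 1 array of each group.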

How the data were processed

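Gene expression was measured in sorted HEK293 cells on 12 single-colour arrays. Partek, RMA and the build hg18 are named in the submitters' processing notes; versions, probe level, background option and filters are not stated in any source used. The deposited values are log2 expression, 1 per row (transcript cluster) and array, and were used as they stand, with 0 columns left out. Symbols came from the platform annotation: 14432 rows had 1 symbol, 2408 several and 5171 none, and 14404 of the first matched a RefSeq gene. Rows are not placed on the genome, and promoters are RefSeq's on GRCh38.p14.

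A model with 4 group means was fitted to 22011 rows by limma 3.58.1 (R 4.3.3, lmFit then eBayes, 8 residual and 3.52 prior degrees of freedom). Two-sided p-values were adjusted by Benjamini-Hochberg across every row. The fit was tested on simulated data with independent noise in each array, which lack the narrow arrays and shared replicate deviations seen here. Permuting 3 against 3 arrays of a single row exactly gives no p below 0.1. The number of arrays limits precision: the median SE was 0.23. The members, roles, lists and tests were chosen with earlier results of these data known. Described with their value in every array were the 3 members with the smallest p per direction in each comparison and a member of each main role; from each pathway list the gene with the smallest p was named. Any others named were chosen after their values were seen. In the comparisons of the constructs with GFP, arrays that share a replicate number deviated together from their group means. The correlations ran from 0.101 to 0.229 (full-length MED12, GFP) and from 0.149 to 0.472 (PQL/Opa deletion, GFP). In each of the other comparisons 1 pair was under 0.1. The labels do not say what a replicate number marks, so pairing is not established. The main fit did not use the replicate number, and its p-values leave any pairing out. A fit with the replicate number as a block was run as an alternative. Other alternatives were quantile normalization, a filter on dim rows, a variance trend, array weights, fits of the groups compared, the second row of BIRC5, and leaving out arrays.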

Additional observations from a re-analysis of the deposited data

How the results depend on the processing

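The count of members past the threshold stayed at 0 in all 4 comparisons under each of the 21 alternatives, except with array weights, which gave 13 with the shRNA and 14 in the F test over the 4 groups (28.9% of all rows passed that test). With those weights CENPE had -0.66, HMMR -0.96, ASPM -0.58, AURKB 0.60 and CDK1 0.40 with the shRNA. With the replicate number as a block the count was 0 in every comparison, and no call on a member changed. Against GFP, 2, 3 and 7 members had an unadjusted p under 0.05 with full-length MED12, the PQL/Opa deletion and the shRNA. Without the block these counts were 1, 2 and 3. The smallest adjusted p of a member with the block was 0.864, 0.400 and 0.0911 in these comparisons (limma). The last was 0.780 without the block. After quantile normalization the member medians were -0.05, -0.05 and -0.12 for full-length MED12, the PQL/Opa deletion and the shRNA against GFP. With 1 array left out they ran from -0.22 to 0.10, from -0.22 to 0.07 and from -0.39 to 0.01, and between the constructs from -0.10 to 0.10, so the sign of no median was stable. The number of members below 0 changed by over 1.5 times without shRNA replicate 1 (16 in place of 25 with the shRNA) and without PQL/Opa deletion replicate 1 (12 in place of 19 with the PQL/Opa deletion). The number above 0 was 6 with full-length MED12 and 9 with the PQL/Opa deletion without GFP replicate 1, in place of 15 for both. With the shRNA it was 18 without shRNA replicate 1, 15 without GFP replicate 2 or 3, and 6 without shRNA replicate 2 or GFP replicate 1, in place of 9. Between the constructs the number below 0 was 28 without PQL/Opa deletion replicate 1, 10 without its replicate 2 and 11 without full-length replicate 1, in place of 17. The number with an unadjusted p under 0.05 against GFP ran from 0 to 3, 1 to 5 and 2 to 4 when 1 array was left out, highest for both constructs without GFP replicate 1. For members described as extremes of a comparison the sign was the same under every alternative, but leaving out 1 array moved 15 of these 24 values by over 1.5 times. Over all members and comparisons 250 of 2716 alternative values changed sign, so the direction of a small log2 fold change is not settled. The 2716 include fits that cannot move a log2 fold change, such as a variance trend or leaving out an array outside the comparison. With 3 arrays a group, the number of arrays limits what any single member can show. MED12 passed between the constructs at 1.76 and did not with a variance trend (adjusted p = 0.0700) or in several fits that left out arrays (1.61 to 1.78).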
